A study of Mus musculus with 25 samples.

Results

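Laminins, integrins and the other basement membrane genes of the mouse sinoatrial node (SAN), the pacemaker region of the heart, were described across development and against the right atrium (RA). Members were taken by gene symbol: the numbered laminin chains (Lama, Lamb, Lamc), the integrin chains (Itga, Itgb), both nidogens, perlecan (Hspg2), agrin (Agrn), both hemicentins and dystroglycan (Dag1). The symbols gave 40 genes of the 20870 listed, made up of 11 laminin chains, 14 integrin alpha chains, 8 integrin beta chains, 6 other matrix glycoproteins and Dag1. Lettered leukocyte chains such as Itgam and Itgal fell outside the rule. Of the lettered chains it names only Itgav, a chain of vitronectin and fibronectin receptors, and the leukocyte chain Itgax.

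A basement membrane is the thin matrix sheet that surrounds each heart muscle cell and underlies endothelium, epicardium and nerve sheath. Laminins, built of an alpha, a beta and a gamma chain, form its first network, which nidogens, perlecan and agrin tie to a second network of type IV collagen. Cells hold on to laminin through integrins, pairs of an alpha and a beta chain, and through dystroglycan, which links laminin to dystrophin inside the cell.

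RNA was measured in 25 libraries from laser-captured heart sections of mice on a mixed background, all carrying an Hcn4-GFP reporter. For SAN and for RA there were 3 libraries from embryos at day 14.5 (E14.5) and 3 each from pups at 4 days (P4) and 14 days (P14) after birth, 18 in all. A separate set of 7 SAN libraries came from E12.5 embryos with floxed Isl1 alleles (Isl1 fl/fl) that received tamoxifen at embryonic day 10.5. Of these, 4 had no Cre (CreNeg) and 3 carried CAG-Cre/Esr1 (CrePos), a tamoxifen-activated recombinase driven by a broadly active promoter, so that the deletion is not limited to the node. No label says which animal a library came from, so the tests below measure only the spread between libraries.

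Each library held 5101711 to 17997497 recovered reads in the 18 and 45298052 to 88020474 in the 7, and the sets were fitted apart. Levels are in CPM, here the deposited scaled signal per gene divided by the same constant in every library. Library totals were therefore not made equal. They ran from 991510 to 1217350 CPM in the 18 libraries and from 632387 to 890183 CPM in the 7. Levels are given in the order of replicates 1 to 3. Differences are on the log2(CPM + 1) scale, which understates changes of low genes. Adjusted p-values come from limma, with Benjamini-Hochberg adjustment over all genes tested, and a gene was called under 0.05. The pacemaker channel gene Hcn4 ran from 1143 to 3748 CPM in the 9 SAN libraries and from 4.43 to 31.1 CPM in the 9 RA libraries, without overlap. Some libraries stood apart. SAN E14.5 replicate 1 held the ventricular myosin gene Myl2 at 829 CPM, and in RA E14.5 replicate 3 the platelet markers summed to 487 CPM against at most 37.4 CPM in the other 17. In SAN P4 replicate 3 the smooth muscle and pericyte markers summed to 3702 CPM against 1101 and 1392 CPM in the other 2 libraries of its group. Since tissue was measured in bulk, fewer cells of a type and less RNA per cell cannot be told apart.

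Averaged over the 3 stages, 15 of the 39 members tested differed between SAN and RA, 10 higher and 5 lower in SAN, where 11.5% of all 17568 genes were called (6.11% higher and 5.36% lower). The higher ones included the laminin chains Lama2 and Lama3, Nid2, Hmcn2, and the integrin chains Itga4, Itga8, Itga10, Itgb6 and Itgb8. The lower ones were Lama4, Lamb3, Hmcn1, Itga5 and Itga6. The median difference of the 39 was 0.11 against -0.01 over all genes. At E14.5, 3 members were higher and 3 lower, against 5.33% of all genes called (2.24% and 3.09%). At P4 it was 5 and 4, against 5.96% (2.97% and 2.99%), and at P14 it was 9 and 2, against 4.55% (3.21% and 1.34%). Member medians at the 3 stages were -0.46, 0.27 and 0.45 beside all-gene medians of -0.07, -0.07 and 0.10. Hmcn1, Itgb8 and Nid2 were called at each stage with the same sign, and the share of all genes called so was not counted.

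**Figure D1:**
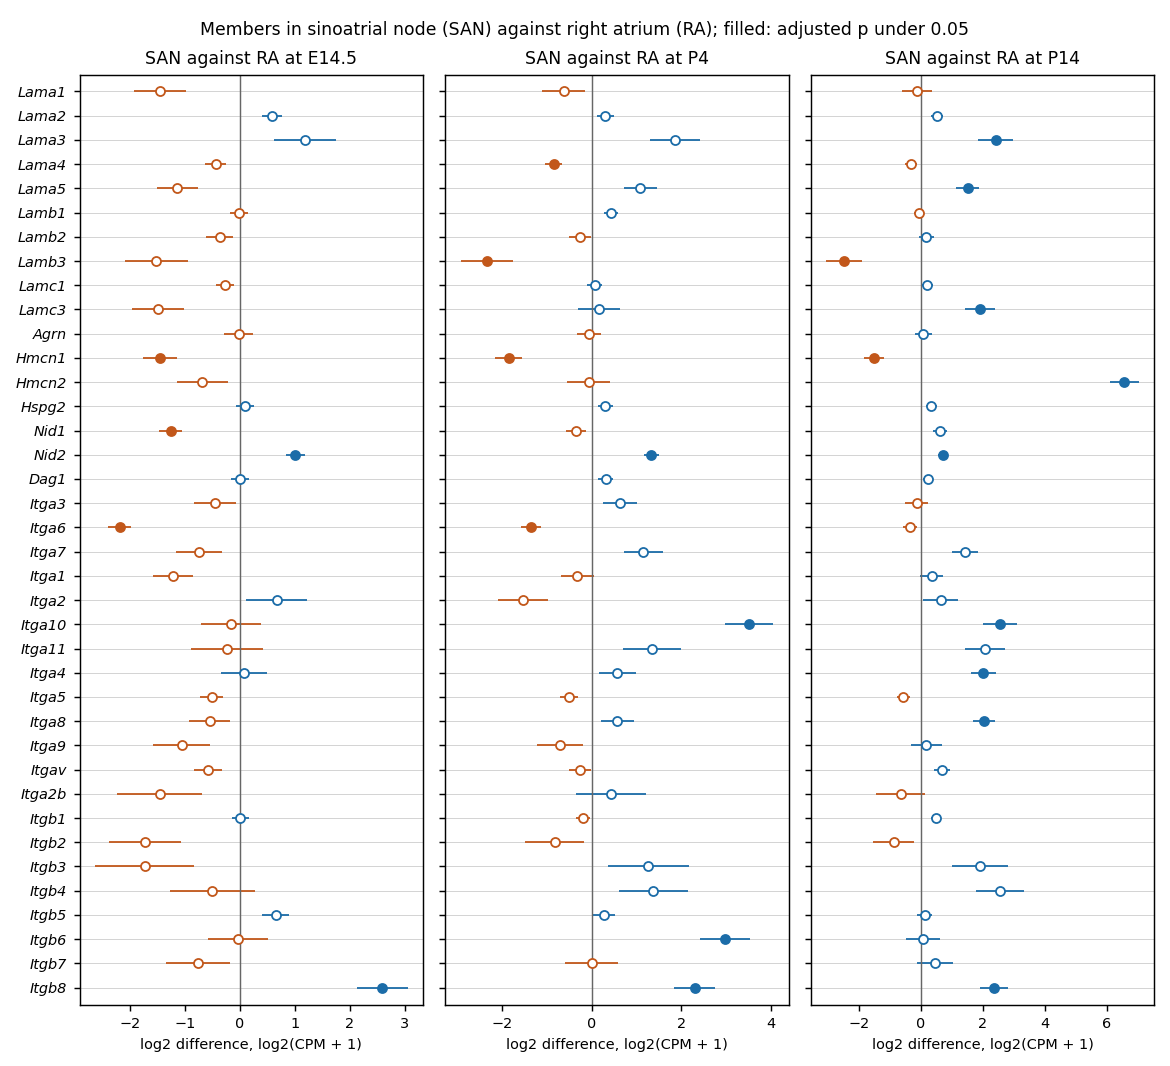
Log2 difference of SAN against RA for 38 of the 39 tested members at E14.5, P4 and P14, ordered by role. Points are limma estimates on log2(CPM + 1), bars are the SE, blue is higher and orange lower in SAN, and filled points passed an adjusted p of 0.05. The filled points number 5 at E14.5, 8 at P4 and 11 at P14, and each panel has its own horizontal scale.

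Markers of other cell types moved with tissue. Of 10 endothelial markers, 7 were lower in SAN at E14.5, 5 at P4 and 2 at P14. Their summed level was 506 to 835 CPM in SAN and 1510.1 to 1937 CPM in RA at E14.5, and 1136 to 1224 and 1574 to 1796 CPM at P14. At P14 the markers of fibroblasts (4 of 8 called), smooth muscle and pericytes (4 of 8) and Schwann cells (4 of 7) were higher in SAN. The fibroblast sums were 18031 to 20757 CPM in SAN and 7176 to 9728 CPM in RA, and the smooth muscle sums 3427 to 4332 and 1298 to 1673 CPM. The Schwann cell sums were 131 to 151 and 34.7 to 43.9 CPM. Cardiac myocyte markers, of which 3 of 8 were lower in SAN at P14, summed there to 79439 to 93164 CPM in SAN and 119230.0 to 128491 CPM in RA, without overlap. From E14.5 to P14 the smooth muscle sums in SAN went from 1145 to 1248 CPM to those given above, with 4 of 8 markers higher and 1 lower. The part of these cell types in the members' differences was not tested.

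From E14.5 to P14, 14 members rose and 6 fell in SAN, where 24.3% of all genes were called (9.74% higher, 14.5% lower). In RA, 5 rose and 12 fell over the same interval, where 22.7% of all genes were called (5.99% higher, 16.7% lower). The median member change was 0.60 in SAN and -0.26 in RA, beside all-gene medians of -0.18 and -0.37. Under upper-quartile and median-of-ratios scaling the all-gene medians moved to -0.07 and 0.00 in SAN and to -0.11 and -0.06 in RA. The members' median then became 0.73 and 0.82 in SAN and turned to 0.06 and 0.12 in RA. The split of members became 15 and 5 or 16 and 5 in SAN and 6 and 8 or 6 and 7 in RA. Over shorter steps, 3 rose and 1 fell in SAN from E14.5 to P4 (all genes 8.24%, with 3.85% up and 4.39% down), and 5 rose and 2 fell from P4 to P14 (all genes 5.59%, with 2.68% up and 2.91% down). Without SAN P4 replicate 3 the latter became 11 and 2, and without SAN P14 replicate 1 it became 3 and 0. In RA, 3 rose and 7 fell to P4 (all genes 6.79%, with 3.23% up and 3.56% down). From P4 to P14 in RA 2 rose and 3 fell (all genes 6.76%, with 1.34% up and 5.42% down), becoming 4 and 0 or 5 and 0 under those scalings.

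Among the laminin alpha chains, which carry the sites that cells bind, Lama2 and Lama4 made up most of the message. Per kilobase of exon, Lama2 took 45.6% ± 8.14 (SD, n = 3) of the summed alpha chain level in SAN at E14.5 and 54.7% ± 0.814 at P14, against 28% ± 3.86 and 44.5% ± 2.67 in RA. Lama4 took 36.4% ± 4.4 in SAN and 52.6% ± 2.41 in RA at P14. Lama2, the chain of muscle and nerve sheath basement membrane, was per kilobase the more abundant of the pair in all SAN libraries at P4 and P14, and Lama4, known from vessels, in all RA libraries.

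In SAN, Lama2 stood at 420.1, 506 and 438 CPM at E14.5, 581, 581 and 499 CPM at P4, and 687, 680.3 and 744 CPM at P14. In RA, Lama2 stood at 335, 391 and 214 CPM at E14.5, 365, 477 and 508 CPM at P4, and 476, 507 and 484 CPM at P14. SAN was above RA in every library at E14.5 and P14, but the groups overlapped at P4. The difference over the stages was 0.47 ± 0.11 (SE, adjusted p = 0.00467). From E14.5 to P14 Lama2 rose by 0.63 ± 0.19 (SE, adjusted p = 0.0155) in SAN and by 0.68 ± 0.19 (SE, adjusted p = 0.0101) in RA. The call was lost without SAN E14.5 replicate 1 (adjusted p = 0.0658) and without SAN P14 replicate 3 (0.0533) in SAN and without RA E14.5 replicate 3 (adjusted p = 0.0831) in RA.

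In SAN, Lama4 was at 276, 208 and 365 CPM at E14.5, 199, 221 and 250.4 CPM at P4, and 242, 313 and 309.6 CPM at P14. In RA, Lama4 was at 361, 456 and 323 CPM at E14.5, 398, 391 and 418 CPM at P4, and 339.5, 336 and 394 CPM at P14. All SAN libraries lay below all RA libraries at P4 and P14, and at E14.5 SAN replicate 3 lay within the RA range. Lama4 was lower in SAN over the stages by -0.54 ± 0.11 (SE, adjusted p = 0.00186) and at P4 by -0.85 ± 0.19 (SE, adjusted p = 0.00697). At P14, where it was not called, the difference was -0.31 ± 0.19 (SE, adjusted p = 0.478). At E12.5 Lama4 was not called in the main fit, and the groups overlapped, but DESeq2 called it higher in CrePos (adjusted p = 0.0329).

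Lama5, a chain of epithelial and vascular basement membranes, changed differently in the tissues. In SAN it was listed at 63, 75.2 and 122 CPM at E14.5, 41.9, 56.6 and 109 CPM at P4, and 145, 52.5 and 74.7 CPM at P14. In RA it was listed at 191, 192 and 173 CPM at E14.5, 41.4, 28.3 and 22.2 CPM at P4, and 37.7, 19.5 and 31.6 CPM at P14. RA libraries were the higher at E14.5 and the lower at P4 and P14, without overlap at any stage, and SAN libraries at the 3 stages overlapped. The nearest libraries at P4 were 41.9 and 41.4 CPM. Neither E14.5 nor P4 was called in the main fit. At E14.5 SAN was called lower with library weights (adjusted p = 0.00105), in a fit of the 2 groups alone (0.00596) and without SAN E14.5 replicate 3 (0.043). At P4 it was called higher in DESeq2 (0.0194) and without SAN P4 replicate 1 (0.0447). In RA, Lama5 fell from E14.5 to P4 by -2.60 ± 0.37 (SE, adjusted p = 7.06e-05) and to P14 by -2.66 ± 0.37 (SE, adjusted p = 1.96e-05), and in SAN the change to P14 was -0.01 ± 0.37 (SE, adjusted p = 0.992). The tissues differed in that change by 2.65 ± 0.52 (SE, adjusted p = 0.0085). SAN was higher at P14 by 1.50 ± 0.37 (SE, adjusted p = 0.0182), a call that was lost without RA P14 replicate 2 (adjusted p = 0.124) and without SAN P14 replicate 1 (0.131).

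Markers of epicardium, a mesothelial layer with a basement membrane of its own, also fell in RA. They summed to 427 to 539, 133 to 279.8 and 82.5 to 173 CPM in RA at the 3 stages and to 307 to 540.4, 422 to 463 and 369.7 to 457 CPM in SAN. Of 9, 5 fell in RA from E14.5 to P4 and 3 from E14.5 to P14, none was at 0 in a whole group, and their part in the change of Lama5 was not tested.

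Lama3, the alpha chain of epithelial laminin-332, was low. In SAN, Lama3 gave 21, 24 and 13.8 CPM at E14.5, 11.7, 25.3 and 38.7 CPM at P4, and 42.9, 33.3 and 41.1 CPM at P14. In RA, Lama3 gave 5.3, 9.39 and 9.71 CPM at E14.5, 3.97, 1.89 and 18.3 CPM at P4, and 11.7, 3.92 and 5.61 CPM at P14. SAN was higher in all libraries at E14.5 and P14, with overlap at P4. The difference was 1.82 ± 0.33 (SE, adjusted p = 0.000431) over the stages and 2.42 ± 0.56 (SE, adjusted p = 0.0124) at P14, the latter lost without RA P14 replicate 2 (adjusted p = 0.0794), without SAN P14 replicate 1 (0.0512) and in edgeR (0.0588).

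Within the 18 libraries, Lama1, the chain of early embryonic basement membranes, was found mainly at E14.5 in RA. Its RA levels were 7.78, 2.39 and 13 CPM at E14.5, 2.03, 0.21 and 0 CPM at P4, and 0.292, 0 and 0 CPM at P14. In SAN all 3 libraries at E14.5 held between 1.59 and 1.85 CPM and all later ones were at 0. In RA it fell to P4 by -2.28 ± 0.48 (SE, adjusted p = 0.00383) and to P14 by -2.78 ± 0.48 (SE, adjusted p = 0.000187), and the P4 call was lost in edgeR (adjusted p = 0.241) and in DESeq2 (0.157). At E12.5 Lama1 was at 1.25, 1.78, 3.71 and 2.03 CPM in CreNeg and at 4.53 and 13.2 CPM in CrePos replicates 1 and 3. CrePos replicate 2 held 1.59 CPM. The difference was not called in the main fit but was called higher in CrePos in DESeq2 (adjusted p = 0.0069).

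The laminin beta chain message shifted from Lamb1 towards Lamb2 with age. Per kilobase, Lamb1 took 84.5% ± 0.895 (SD, n = 3) of the beta chain level in SAN at E14.5, 75.5% ± 4.6 at P4 and 49.3% ± 7.01 at P14. In RA, Lamb1 took 80.2% ± 3.3 at E14.5, 62.2% ± 4.62 at P4 and 51.5% ± 0.994 at P14. Lamb2, the beta chain of mature muscle and synaptic basement membrane, went from 15.3% ± 0.862 to 50% ± 7.5 in SAN and from 18.7% ± 3.15 to 44.1% ± 1.51 in RA. At P14 Lamb1 was still above Lamb2 in all 3 RA libraries and in 2 of the 3 SAN libraries.

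**Figure D2:**
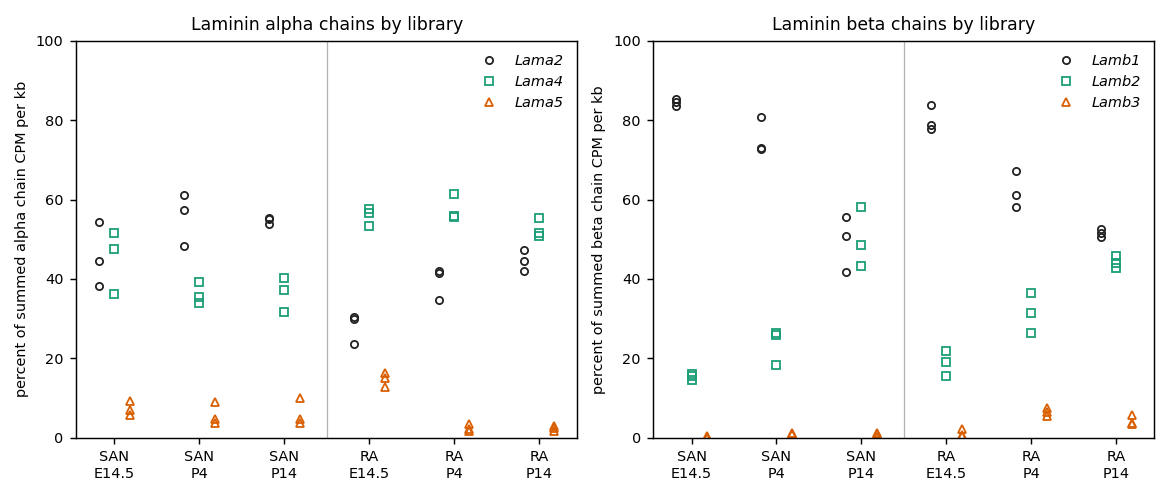
Share of each laminin alpha (left) or beta (right) chain in the summed level of its family, per kilobase of exon, in each SAN and RA library at E14.5, P4 and P14 (3 points per group). Lama1 and Lama3 count in the alpha sum but are not drawn. Lamb2 passes from at most 21.8% in all E14.5 libraries to at least 42.7% in all P14 libraries, and Lama2 lies above Lama4 in SAN at P4 and P14 and below it in RA.

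In SAN, Lamb1 had 383, 439 and 462 CPM at E14.5, 413, 399 and 373 CPM at P4, and 203, 283 and 231 CPM at P14. In RA, Lamb1 had 419, 486 and 399.6 CPM at E14.5, 301, 283 and 291 CPM at P4, and 231, 299 and 223 CPM at P14. All P14 libraries lay below all E14.5 libraries in each tissue. Lamb1 fell from E14.5 to P14 by -0.85 ± 0.16 (SE, adjusted p = 0.000574) in SAN and by -0.80 ± 0.16 (SE, adjusted p = 0.00107) in RA, and from P4 to P14 in SAN by -0.73 ± 0.16 (SE, adjusted p = 0.0101). The fall in RA was lost under median-of-ratios scaling (adjusted p = 0.0891), in edgeR (0.119) and in DESeq2 (0.1). The fall in SAN after P4 was lost without SAN P14 replicate 1 (adjusted p = 0.0599) and in a fit of the 2 groups alone (0.0825). In RA the step from E14.5 to P4 was -0.57 ± 0.16 (SE, adjusted p = 0.0359), lost when any of 6 libraries was dropped (adjusted p as high as 0.147, without RA E14.5 replicate 2), under median-of-ratios scaling (0.0684), in edgeR (0.0923) and in a fit of the 2 groups alone (0.0559).

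In SAN, Lamb2 reached 67.6, 71.5 and 85.9 CPM at E14.5, 90.3, 136 and 130.1 CPM at P4, and 272, 261 and 174 CPM at P14. In RA, Lamb2 reached 113, 113 and 71.1 CPM at E14.5, 114, 139.9 and 176 CPM at P4, and 184, 261 and 181 CPM at P14. P14 was the highest stage in every library of both tissues. Lamb2 rose from E14.5 to P14 by 1.62 ± 0.24 (SE, adjusted p = 4.03e-05) in SAN and by 1.08 ± 0.24 (SE, adjusted p = 0.00249) in RA. The later step in SAN, from P4, was 0.98 ± 0.24 (SE, adjusted p = 0.0207), lost without SAN P4 replicate 1 (adjusted p = 0.0837), without SAN P14 replicate 1 (0.0924), without SAN P14 replicate 2 (0.0694), with library weights (0.0824) and in a fit of the 2 groups alone (0.0682).

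Lamb3, the beta chain of laminin-332, was found mainly in RA. It read 0.0723, 1.11 and 1.6 CPM at E14.5, 3.67, 5.61 and 4.09 CPM at P4, and 0.573, 4 and 4 CPM at P14 in SAN. It read 2.14, 12.2 and 2.4 CPM at E14.5, 25.3, 30.4 and 23.7 CPM at P4, and 22.2, 19.8 and 13.1 CPM at P14 in RA. RA was higher in every library at all 3 stages. The difference was -2.12 ± 0.33 (SE, adjusted p = 0.000103) over the stages, -2.34 ± 0.58 (SE, adjusted p = 0.0145) at P4 and -2.48 ± 0.58 (SE, adjusted p = 0.0124) at P14. That at P4 no longer passed without RA P4 replicate 2 (adjusted p = 0.0563), without SAN P4 replicate 1 (0.0519), at a pseudocount of 0.25 CPM (0.0552) and in edgeR (0.0707). The P14 call was lost without RA P14 replicate 1 (adjusted p = 0.0603), without RA P14 replicate 2 (0.053), without SAN P14 replicate 1 (0.0882) and in edgeR (0.0553), whereas the call over the stages was kept in all 28 alternatives. In RA it rose from E14.5 to P4 by 2.39 ± 0.58 (SE, adjusted p = 0.0116), lost without RA E14.5 replicate 1 (adjusted p = 0.0831), without RA E14.5 replicate 3 (0.0769) and in edgeR (0.0786). To P14 the rise was 1.87 ± 0.58 (SE, adjusted p = 0.0226), lost without RA E14.5 replicate 1 (adjusted p = 0.119), without RA E14.5 replicate 3 (0.102), without RA P14 replicate 1 (0.0781), without RA P14 replicate 2 (0.0645), at a pseudocount of 0.25 CPM (0.0536) and in edgeR (0.0537).

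Of the gamma chains, Lamc1, the partner in most laminins, held between 93.3% and 99.8% of the per-kilobase level in every group on average and was called in none of the 12 comparisons with the main settings. Its rise in SAN from E14.5 to P14 was called under upper-quartile scaling (adjusted p = 0.0331), under median-of-ratios scaling (0.0189), in edgeR (0.0312) and in DESeq2 (0.0137), and it was called higher in CrePos under upper-quartile scaling (adjusted p = 0.0392), under median-of-ratios scaling (0.0389) and in DESeq2 (0.000586). Library weights also called it lower in RA at P4 than at E14.5 (0.0248) and different between tissues in its change to P14 (0.0439). Its levels lay between 718 and 1112 CPM in the 18 libraries. Lamc3 did not exceed 5.30 CPM in the 18 libraries and was called higher in SAN at P14 by 1.91 ± 0.47 (SE, adjusted p = 0.0196). That call was lost without RA P14 replicate 1 (adjusted p = 0.0524), without RA P14 replicate 2 (0.0751), without RA P14 replicate 3 (0.0645), without SAN P14 replicate 2 (0.0847), without SAN P14 replicate 3 (0.0844), in edgeR (0.14), in DESeq2 (0.0525) and in a fit of the 2 groups alone (0.0641).

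Nid1 and Nid2 encode the nidogens, which bind laminin gamma chains and type IV collagen, and they moved in opposite directions in the node. In SAN, Nid1 measured 261, 245 and 317 CPM at E14.5, 435, 619.6 and 893 CPM at P4, and 769, 1107 and 708 CPM at P14. In RA, Nid1 measured 682, 708 and 590.0 CPM at E14.5, 650.1, 812 and 944 CPM at P4, and 506, 570.0 and 571 CPM at P14. SAN lay below RA without overlap at E14.5, overlapped it at P4 and lay above it without overlap at P14. The difference at E14.5 was -1.27 ± 0.22 (SE, adjusted p = 0.000806), and at P14, where it was not called, 0.62 ± 0.22 (SE, adjusted p = 0.126). In SAN, Nid1 rose by 1.19 ± 0.22 (SE, adjusted p = 0.0013) to P4 and by 1.63 ± 0.22 (SE, adjusted p = 1.15e-05) to P14. The change in RA to P14 was -0.26 ± 0.22 (SE, adjusted p = 0.416), and the tissues differed in it by 1.89 ± 0.31 (SE, adjusted p = 0.00169).

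In SAN, Nid2 measured 321, 318 and 328 CPM at E14.5, 171, 227 and 244 CPM at P4, and 148, 146 and 179 CPM at P14. In RA, Nid2 measured 169.6, 142 and 171 CPM at E14.5, 79.96, 88.1 and 81.8 CPM at P4, and 86.4, 97.4 and 103 CPM at P14. SAN was higher in every library at every stage. The difference was 1.02 ± 0.10 (SE, adjusted p = 1.46e-07) over the stages, 1.002 ± 0.173 (SE, adjusted p = 0.000837) at E14.5, 1.33 ± 0.17 (SE, adjusted p = 1.80e-05) at P4 and 0.71 ± 0.17 (SE, adjusted p = 0.0174) at P14. The P14 call was lost without RA P14 replicate 1 (adjusted p = 0.0909), without SAN P14 replicate 3 (0.0894), under upper-quartile scaling (0.0961), under median-of-ratios scaling (0.0578) and in edgeR (0.0738). Nid2 fell from E14.5 to P14 by -1.04 ± 0.17 (SE, adjusted p = 0.000133) in SAN and by -0.74 ± 0.17 (SE, adjusted p = 0.00326) in RA, the latter lost under upper-quartile scaling (adjusted p = 0.0998), under median-of-ratios scaling (0.174), in edgeR (0.165) and in DESeq2 (0.136). In RA the fall to P4 was -0.94 ± 0.17 (SE, adjusted p = 0.00126). In SAN the fall to P4, -0.61 ± 0.17 (SE, adjusted p = 0.0326), was lost without SAN E14.5 replicate 1 (adjusted p = 0.0941), without SAN E14.5 replicate 2 (0.0884), without SAN E14.5 replicate 3 (0.0876), without SAN P4 replicate 1 (0.156), without SAN P4 replicate 2 (0.0569), under upper-quartile scaling (0.0539), under median-of-ratios scaling (0.0796), in edgeR (0.0774) and in a fit of the 2 groups alone (0.0707).

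Hspg2 encodes perlecan, the large heparan sulfate proteoglycan of basement membranes, and Agrn encodes agrin, best known from the nerve-muscle synapse. In SAN, Hspg2 amounted to 816, 812 and 1002 CPM at E14.5 and 1594, 1356 and 1069.9 CPM at P14. All P14 libraries were above all E14.5 libraries. The rise was 0.60 ± 0.16 (SE, adjusted p = 0.00992), lost without SAN P14 replicate 1 (adjusted p = 0.0688). In RA, Hspg2 amounted to 744, 987 and 747 CPM at E14.5 and 1056, 951 and 1132 CPM at P14. The RA libraries of the stages overlapped, and the difference of 0.35 ± 0.16 (SE, adjusted p = 0.132) was not called but became so under upper-quartile scaling (adjusted p = 0.00357), under median-of-ratios scaling (0.00162), in edgeR (0.00241), in DESeq2 (0.000178) and with library weights (0.00159). The change from P4 to P14 in RA was likewise called under upper-quartile scaling (adjusted p = 0.0329), under median-of-ratios scaling (0.0265), in edgeR (0.0388) and in DESeq2 (0.00711). The tissues differed in the change to P14 by 0.25 ± 0.23 (SE, adjusted p = 0.69), which was not called. In SAN, Agrn amounted to 191, 199 and 208 CPM at E14.5 and 76.8, 99.7 and 100.2 CPM at P14. In RA, Agrn amounted to 230.1, 228 and 160.2 CPM and 83.2, 77 and 101 CPM at those stages. Agrn fell in both tissues without overlap, by -1.11 ± 0.27 (SE, adjusted p = 0.00446) in SAN and -1.22 ± 0.27 (SE, adjusted p = 0.00231) in RA. Neither gene was called between SAN and RA, though Hspg2 was called higher over the stages without RA E14.5 replicate 2 (adjusted p = 0.0478) and without SAN P14 replicate 3 (0.0443).

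The hemicentins are giant extracellular proteins at junctions between basement membranes and at organ boundaries. Hmcn1 was lower in SAN at each stage, and Hmcn2 was high in SAN at P14. In SAN, Hmcn1 showed 204, 188 and 238 CPM at E14.5, 180.4, 355 and 727 CPM at P4, and 247, 258 and 294 CPM at P14. In RA, Hmcn1 showed 617, 762 and 407 CPM at E14.5, 1239, 1301 and 1366 CPM at P4, and 703, 849.7 and 739 CPM at P14. RA was higher in every library at every stage. The difference was -1.61 ± 0.18 (SE, adjusted p = 8.13e-07) over the stages, -1.46 ± 0.31 (SE, adjusted p = 0.00505) at E14.5, -1.85 ± 0.31 (SE, adjusted p = 0.000384) at P4 and -1.52 ± 0.31 (SE, adjusted p = 0.00426) at P14. These 4 calls were kept under every alternative run. In RA, Hmcn1 rose from E14.5 to P4 by 1.17 ± 0.31 (SE, adjusted p = 0.0211), lost without RA E14.5 replicate 1 (adjusted p = 0.052), without RA E14.5 replicate 3 (0.136), without RA P4 replicate 2 (0.0585) and without RA P4 replicate 3 (0.0772).

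In SAN, Hmcn2 showed 1.88, 0.431 and 0.201 CPM at E14.5, 0.918, 0 and 0.261 CPM at P4, and 91.5, 142 and 63.8 CPM at P14. In RA, Hmcn2 showed 1.24, 2.03 and 2.05 CPM at E14.5, 0.61, 0.733 and 0 CPM at P4, and 0, 0 and 0 CPM at P14. All 15 libraries other than SAN P14 were at or below 2.05 CPM, and RA P14 was at 0 throughout. Against the level that 3 reads would give in RA P14 replicate 3, the highest such level of its group at 0.443 CPM, the SAN P14 mean was at least 224-fold higher. The fitted difference at P14 was 6.57 ± 0.47 (SE, adjusted p = 7.05e-09), with a size that depends on the pseudocount. Hmcn2 rose in SAN by 5.80 ± 0.47 (SE, adjusted p = 1.51e-08) from E14.5 and by 6.14 ± 0.47 (SE, adjusted p = 9.01e-08) from P4. Smooth muscle, fibroblast and Schwann cell markers were also higher in SAN at P14, as given above. So were other marker sums, among them macrophages and leukocytes (456 to 658 against 205 to 227 CPM) and epicardium (369.7 to 457 against 82.5 to 173 CPM). Endothelial and cardiac myocyte sums were lower. The part of these cell types in the rise of Hmcn2 was not tested.

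Hmcn1 and Itgb8, called at every stage in opposite directions, and Hmcn2 are shown by the 250 bases before their RefSeq start (GRCm38.p6), written in the direction of the gene with motif matches in capitals. The 30 bases after the start were found in a GENCODE transcript of the gene for Hmcn1 and Itgb8 but not for Hmcn2, so the Hmcn2 window may not end where its annotated transcripts begin.
Hmcn1, chr1:150993436-150993685, minus strand: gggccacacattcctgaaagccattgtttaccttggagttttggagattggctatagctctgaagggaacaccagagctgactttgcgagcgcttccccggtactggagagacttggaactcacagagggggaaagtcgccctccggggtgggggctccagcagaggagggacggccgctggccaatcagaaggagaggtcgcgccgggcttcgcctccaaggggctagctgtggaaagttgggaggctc
Itgb8, chr12:119238277-119238526, minus strand: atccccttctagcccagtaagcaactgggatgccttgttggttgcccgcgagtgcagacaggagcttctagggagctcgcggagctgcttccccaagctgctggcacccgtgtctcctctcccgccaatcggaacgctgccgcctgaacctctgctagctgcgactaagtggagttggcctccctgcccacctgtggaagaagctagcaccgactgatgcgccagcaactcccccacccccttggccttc
Hmcn2, chr2:31314082-31314331, plus strand: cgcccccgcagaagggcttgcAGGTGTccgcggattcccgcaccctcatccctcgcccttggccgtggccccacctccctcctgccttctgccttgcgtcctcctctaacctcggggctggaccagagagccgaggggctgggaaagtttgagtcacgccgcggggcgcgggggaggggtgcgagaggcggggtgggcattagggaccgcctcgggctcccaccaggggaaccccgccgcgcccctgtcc
The windows were searched on both strands for a T-box half-site, an NKX2-5 core, a GC box and a TATA box. A single match was found, the T-box half-site AGGTGT in Hmcn2, beginning 229 bases before the start, which 11.83% of all 32851 promoter windows of that length hold. The NKX2-5 core was spelled CACTTNA and is in 10.06% of the windows. The GC box was spelled GGGCGG and is in 32.74% of them. The TATA box was spelled TATAAA and is in 12.37%. No searched motif overlaps another in these windows. A promoter entry was found for 28 of the 40 members.

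**Figure D3:**
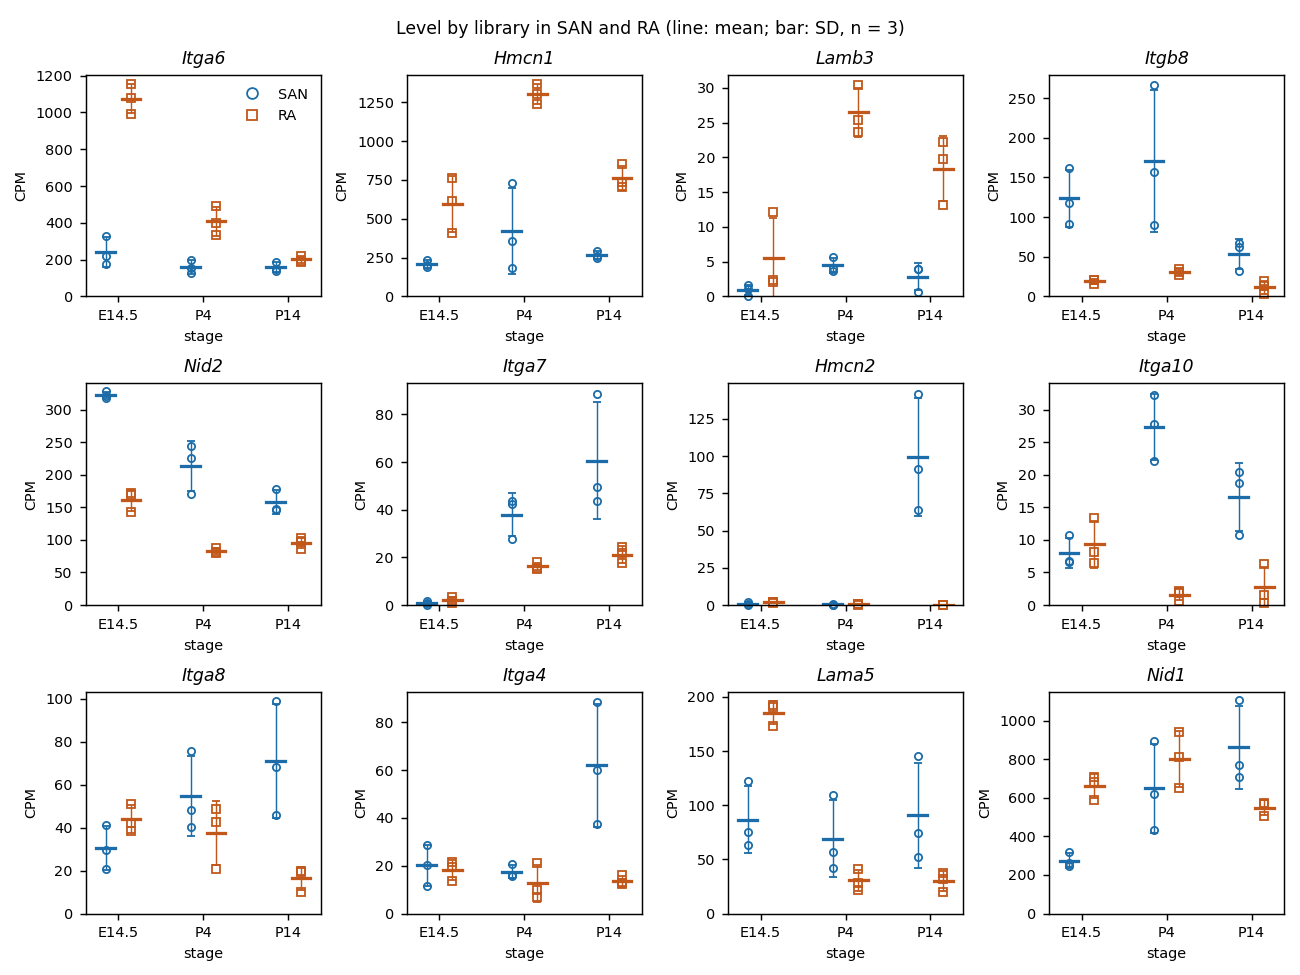
Level in CPM of 12 members in each SAN (blue circles) and RA (orange squares) library at E14.5, P4 and P14, with the mean as a line and the SD as a bar (n = 3). Each panel has its own linear axis from 0. RA libraries lie above all SAN libraries of their stage for Hmcn1 and Lamb3, and SAN libraries above RA for Itgb8 and Nid2, while Hmcn2 is above 60 CPM only in the 3 SAN libraries at P14.

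Among the laminin-binding integrin alpha chains, Itga6 was the most abundant in RA at E14.5 and converged between tissues with age. In SAN, Itga6 came to 175, 220.0 and 329.8 CPM at E14.5, 126, 199 and 155 CPM at P4, and 149, 189 and 139 CPM at P14. In RA, Itga6 came to 1078, 1153 and 993 CPM at E14.5, 336, 398 and 492 CPM at P4, and 195, 189 and 223 CPM at P14. RA was higher without overlap at E14.5 and P4, and at P14 RA replicate 2 was level with the highest SAN library. The difference was -2.20 ± 0.22 (SE, adjusted p = 8.26e-07) at E14.5, -1.35 ± 0.22 (SE, adjusted p = 0.000231) at P4 and -1.30 ± 0.12 (SE, adjusted p = 9.50e-08) over the stages, while at P14 it was -0.35 ± 0.22 (SE, adjusted p = 0.474) and not called.

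In RA, Itga6 fell by -1.41 ± 0.22 (SE, adjusted p = 0.000179) to P4, by a further -0.997 ± 0.216 (SE, adjusted p = 0.00754) to P14 and by -2.40 ± 0.22 (SE, adjusted p = 6.45e-08) in all. The second step was lost under upper-quartile scaling (adjusted p = 0.0551), under median-of-ratios scaling (0.0739) and in edgeR (0.0749). In SAN the change from E14.5 to P14 was -0.56 ± 0.22 (SE, adjusted p = 0.0616), called with library weights (adjusted p = 0.0337), without SAN E14.5 replicate 1 (0.0213) and without SAN P14 replicate 2 (0.0418), and the tissues differed in that change by 1.84 ± 0.31 (SE, adjusted p = 0.00192). Per kilobase, Itga6 made up 67.8% ± 1.79 (SD, n = 3) of all integrin alpha message in RA at E14.5 and 31.4% ± 1.72 at P14, and 41.7% ± 6.01 and 21.4% ± 2.56 in SAN. The epicardial markers fell in RA over the same interval and the endothelial markers were lower in SAN at E14.5, as given above. Their part in the pattern of Itga6 was not tested.

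Itga7, the laminin receptor chain of mature muscle, appeared after birth. In SAN, Itga7 yielded 0.145, 1.6 and 0.702 CPM at E14.5, 43.6, 42.6 and 27.6 CPM at P4, and 88.7, 43.6 and 49.6 CPM at P14. In RA, Itga7 yielded 3.5, 0.921 and 1.78 CPM at E14.5, 15.1, 15.6 and 17.9 CPM at P4, and 24.2, 17.5 and 21.9 CPM at P14. Every postnatal library was above every E14.5 library of its tissue. In SAN the rise was 4.47 ± 0.43 (SE, adjusted p = 1.01e-06) to P4 and 5.09 ± 0.43 (SE, adjusted p = 2.38e-08) to P14. In RA it was 2.57 ± 0.43 (SE, adjusted p = 0.000453) and 2.93 ± 0.43 (SE, adjusted p = 3.28e-05). All SAN libraries exceeded all RA libraries at P4 and P14, but the difference was not called, at 1.15 ± 0.43 (SE, adjusted p = 0.131) and 1.42 ± 0.43 (SE, adjusted p = 0.0629). The P14 difference was called at a pseudocount of 5 CPM (adjusted p = 0.0122), in DESeq2 (0.0432) and in a fit of the 2 groups alone (0.0175). The tissues were not called different in the rise either, at 2.16 ± 0.60 (SE, adjusted p = 0.0615), but that difference was called at a pseudocount of 5 CPM (adjusted p = 0.0458), in DESeq2 (0.0101) and with library weights (0.00842).

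Itga3, a laminin receptor of epithelia, fell in RA from 68, 44 and 30.9 CPM at E14.5 to 15.7, 16.3 and 15.5 CPM at P4. The groups did not overlap, and the fall was -1.46 ± 0.38 (SE, adjusted p = 0.0196), lost without RA E14.5 replicate 1 (adjusted p = 0.146), without RA E14.5 replicate 2 (0.0563), without RA P4 replicate 2 (0.0509) and without RA P4 replicate 3 (0.0582). At P14 Itga3 in RA was at 24.1, 34.2 and 27.5 CPM, overlapping E14.5, a change called only with library weights (adjusted p = 0.00242). SAN libraries held 44.4, 39.9 and 19.5 CPM at E14.5 and 22.7, 28.2 and 24.7 CPM at P4, with overlap and no call.

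Of the collagen-binding alpha chains, Itga10, best known as a collagen receptor of cartilage cells, differed between tissues after birth. In SAN, Itga10 lay at 6.65, 6.72 and 10.7 CPM at E14.5, 32.3, 27.8 and 22.2 CPM at P4, and 10.7, 20.4 and 18.8 CPM at P14. In RA, Itga10 lay at 13.3, 6.45 and 8.19 CPM at E14.5, 1.93, 0.629 and 2.15 CPM at P4, and 1.61, 6.24 and 0.295 CPM at P14. The groups overlapped at E14.5 and separated at P4 and P14. SAN was higher by 3.51 ± 0.54 (SE, adjusted p = 0.000152) at P4, 2.56 ± 0.54 (SE, adjusted p = 0.00578) at P14 and 1.97 ± 0.31 (SE, adjusted p = 0.000112) over the stages, and the P14 call was lost in edgeR (adjusted p = 0.0758). In RA, Itga10 fell from E14.5 to P4 by -2.01 ± 0.54 (SE, adjusted p = 0.0245), lost without RA E14.5 replicate 1 (adjusted p = 0.137), without RA E14.5 replicate 3 (0.0683) and without RA P4 replicate 2 (0.109). The fall to P14 was -1.78 ± 0.54 (SE, adjusted p = 0.0207), lost without RA E14.5 replicate 1 (adjusted p = 0.101), without RA P14 replicate 1 (0.061), without RA P14 replicate 3 (0.132), under upper-quartile scaling (0.0538), under median-of-ratios scaling (0.0683), in edgeR (0.22) and in DESeq2 (0.154).

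Itga1 and Itga11, receptors for basement membrane and fibrillar collagens, rose in SAN. In SAN, Itga1 was found at 47.6, 19.9 and 50.4 CPM at E14.5 and 131, 155 and 155 CPM at P14. The groups were well apart, and the rise was 1.98 ± 0.37 (SE, adjusted p = 0.000399). In RA, Itga1 was found at 104, 76.4 and 80.2 CPM at E14.5 and 111, 137 and 101 CPM at P14. SAN lay below RA without overlap at E14.5 and overlapped it at P14, with no call in the main fit. The E14.5 difference was called in 2-group fits (adjusted p = 0.0247), with library weights (0.000228), in DESeq2 (0.0432), with a filter of 5 CPM (0.0482) and without SAN E14.5 replicate 3 (0.0394). In SAN, Itga11, a chain typical of fibroblasts, was found at 1.37, 2.1 and 0.903 CPM at E14.5, 0, 3.41 and 9.48 CPM at P4, and 23.2, 35.6 and 20.2 CPM at P14. In RA, Itga11 was found at 1.92, 1.66 and 1.96 CPM at E14.5, 1.53, 0.105 and 0 CPM at P4, and 3.5, 10.3 and 3.99 CPM at P14. Only the SAN P14 libraries were above 10.3 CPM. The difference between SAN and RA at P14 was nevertheless not called with the main settings. It was called at a pseudocount of 5 CPM (adjusted p = 0.0049), with library weights (0.011) and in a fit of the 2 groups alone (0.0197). In SAN it rose by 3.46 ± 0.65 (SE, adjusted p = 0.000438) from E14.5 and by 2.89 ± 0.65 (SE, adjusted p = 0.0111) from P4, the latter lost without SAN P4 replicate 1 (adjusted p = 0.0571), in edgeR (0.155) and in a fit of the 2 groups alone (0.0712). In RA it rose from P4 to P14 by 2.17 ± 0.65 (SE, adjusted p = 0.0469), lost without RA P4 replicate 2 (adjusted p = 0.133), without RA P4 replicate 3 (0.141), without RA P14 replicate 1 (0.0692), without RA P14 replicate 2 (0.189), without RA P14 replicate 3 (0.0738), at a pseudocount of 5 CPM (0.0831), with no filter on low genes (0.0705), in edgeR (0.0989) and in a fit of the 2 groups alone (0.0592).

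Fibroblast markers rose in SAN from sums of 2191 to 4789 CPM at E14.5 to the P14 sums given above, with 6 of 8 called and none at 0. Their part in the rise of Itga11 was not tested. Itga2 was called in no comparison with all libraries, but without SAN P4 replicate 3 it was called lower in SAN at P4 (adjusted p = 0.005), lower in SAN at P4 than at E14.5 (0.0137) and higher at P14 than at P4 (0.0272), and ranged from 2.51 to 31.4 CPM in the 18 libraries.

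The remaining alpha chains bind fibronectin, nephronectin, vitronectin or cell-surface ligands. Itga8, the nephronectin receptor chain, went up in SAN and down in RA. In SAN, Itga8 ran at 29.4, 20.8 and 41.2 CPM at E14.5, 40.5, 48 and 75.7 CPM at P4, and 98.9, 45.7 and 68.3 CPM at P14. In RA, Itga8 ran at 42.1, 51 and 38.5 CPM at E14.5, 48.7, 42.7 and 20.7 CPM at P4, and 19.4, 10.1 and 19.6 CPM at P14. The groups overlapped at E14.5 and P4 and separated at P14, where SAN was higher by 2.04 ± 0.37 (SE, adjusted p = 0.00142). Itga8 rose in SAN from E14.5 to P14 by 1.18 ± 0.37 (SE, adjusted p = 0.0224) and fell in RA by -1.41 ± 0.37 (SE, adjusted p = 0.0076), a difference of 2.59 ± 0.52 (SE, adjusted p = 0.00938). The rise in SAN was lost without SAN E14.5 replicate 1 (adjusted p = 0.0583), without SAN E14.5 replicate 2 (0.117), without SAN P14 replicate 1 (0.122) and without SAN P14 replicate 3 (0.0556). The fall in RA was lost without RA P14 replicate 2 (adjusted p = 0.053) and in edgeR (0.0663). Over the stages the difference of 0.69 ± 0.21 (SE, adjusted p = 0.0384) was lost when any of 9 libraries was dropped (adjusted p as high as 0.0881, without SAN P14 replicate 1), with no filter on low genes (0.0531) and with library weights (0.0506).

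Npnt, which encodes the Itga8 ligand nephronectin, held 88.6, 23.2 and 56 CPM in SAN and 6.72, 12.4 and 5.46 CPM in RA at P14. It was higher in SAN at P14 by 2.51 ± 0.42 (SE, adjusted p = 0.000594). In RA it had fallen from 119, 116 and 145 CPM at E14.5, by -3.86 ± 0.42 (SE, adjusted p = 9.05e-07). The tissues differed in the change of Npnt by 2.98 ± 0.59 (SE, adjusted p = 0.00856), the same sign as for Itga8.

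Itga4, a receptor chain for Vcam1 and fibronectin on leukocytes and embryonic epicardium, was higher in SAN at P14. In SAN, Itga4 had 11.4, 28.6 and 20.5 CPM at E14.5, 16.2, 15.5 and 20.6 CPM at P4, and 88.6, 60.0 and 37.3 CPM at P14. In RA, Itga4 had 13.8, 19.3 and 21.6 CPM at E14.5, 6.71, 9.95 and 21.3 CPM at P4, and 16.2, 12.7 and 12.4 CPM at P14. The P14 SAN libraries were above all of the other 15. The difference was 2.02 ± 0.41 (SE, adjusted p = 0.0046) at P14 and 0.89 ± 0.24 (SE, adjusted p = 0.0162) over the stages. In SAN it rose by 1.58 ± 0.41 (SE, adjusted p = 0.00732) from E14.5, lost without SAN E14.5 replicate 1 (adjusted p = 0.058) and without SAN P14 replicate 1 (0.0521). From P4 the rise was 1.70 ± 0.41 (SE, adjusted p = 0.0187), lost without SAN P4 replicate 2 (adjusted p = 0.0654), without SAN P14 replicate 1 (0.101) and with library weights (0.0654). Macrophage and leukocyte markers summed to 54.5 to 86.9 CPM in SAN at E14.5 and 456 to 658 CPM at P14 (8 of 9 called), against 205 to 227 CPM in RA at P14. Their part in the level of Itga4 was not tested.

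Itga5, the fibronectin receptor chain, was lower in SAN over the stages by -0.53 ± 0.12 (SE, adjusted p = 0.00442), with SAN libraries between 105 and 179 CPM and RA libraries between 157 and 226 CPM. No single stage was called in the main fit. At P14 SAN held 114, 141 and 105 CPM and RA 166, 179 and 189 CPM. That difference was called under upper-quartile (adjusted p = 0.024) and median-of-ratios scaling (0.0334), in edgeR (0.0427) and in DESeq2 (0.0133). Library weights called Itga5 lower in SAN at E14.5 (0.00345). Fn1, the gene of fibronectin itself, was also lower in SAN over the stages, by -1.29 ± 0.22 (SE, adjusted p = 0.00023). Itgav, a chain of vitronectin and fibronectin receptors, rose in SAN from 68, 116 and 82 CPM at E14.5 to 179.6, 181 and 183 CPM at P14. The groups did not overlap and the rise was 1.06 ± 0.25 (SE, adjusted p = 0.00354). In RA, Itgav was at 144, 115 and 134 CPM at E14.5 and 131, 93.3 and 117 CPM at P14. SAN and RA overlapped at E14.5, and SAN was above RA without overlap at P14, with no call in the main fit. Itga9 was called in no comparison with the main settings and ranged from 10.7 to 162 CPM. Its rise in SAN from E14.5 to P14 was called in DESeq2 (adjusted p = 0.0293) and in a fit of the 2 groups alone (0.00806), and its difference between tissues at E14.5 was called with library weights (adjusted p = 0.0141) and in a fit of the 2 groups alone (0.0105). Without SAN P4 replicate 3 it was called over the stages (0.0217), at P4 (0.0287) and in SAN from P4 to P14 (0.00342). A replicate block, fitted in the Isl1 set without CreNeg replicates 2 and 4, called it lower in CrePos (0.0379).

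Of the beta chains, Itgb1, the partner of all laminin- and collagen-binding alpha chains described above except where Itga6 pairs with Itgb4, took between 71.9% and 86.6% of the per-kilobase level in the 6 groups on average. In RA it went from 592, 613 and 656 CPM at P4 to 405, 441 and 396 CPM at P14. That fall was -0.58 ± 0.16 (SE, adjusted p = 0.0279) without overlap, lost without RA P4 replicate 2 (adjusted p = 0.0689), without RA P4 replicate 3 (0.0833), without RA P14 replicate 1 (0.0816), without RA P14 replicate 3 (0.0829), under upper-quartile scaling (0.403), under median-of-ratios scaling (0.473), in edgeR (0.478) and in DESeq2 (0.478). No other comparison called Itgb1 in limma with equal weights, and library weights called it higher in SAN at P14 (adjusted p = 0.0228) and lower in RA at P14 than at E14.5 (0.0012).

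Itgb8, the partner of Itgav in activating latent TGF-beta, was higher in SAN than in RA. In SAN, Itgb8 gave 117, 162 and 91.3 CPM at E14.5, 267, 156 and 89.9 CPM at P4, and 32.1, 62 and 67.2 CPM at P14. In RA, Itgb8 gave 20.9, 15.7 and 21.3 CPM at E14.5, 30.6, 35.1 and 27.3 CPM at P4, and 12.7, 2.85 and 18.9 CPM at P14. SAN exceeded RA in every library at every stage. The difference was 2.42 ± 0.26 (SE, adjusted p = 7.13e-07) over the stages, 2.59 ± 0.46 (SE, adjusted p = 0.00105) at E14.5, 2.30 ± 0.46 (SE, adjusted p = 0.00244) at P4 and 2.36 ± 0.46 (SE, adjusted p = 0.0028) at P14, and all 4 calls were kept in every alternative run. From P4 to P14 it fell in SAN by -1.58 ± 0.46 (SE, adjusted p = 0.0446), lost without SAN P4 replicate 1 (adjusted p = 0.178), without SAN P4 replicate 2 (0.115), without SAN P14 replicate 1 (0.188), without SAN P14 replicate 2 (0.0642), without SAN P14 replicate 3 (0.0589), at a pseudocount of 0.25 CPM (0.0632), with no filter on low genes (0.073), under upper-quartile scaling (0.064), under median-of-ratios scaling (0.0653), in edgeR (0.0621), with library weights (0.057) and in a fit of the 2 groups alone (0.0529). In RA the fall was -1.65 ± 0.46 (SE, adjusted p = 0.0339), lost without RA P4 replicate 1 (adjusted p = 0.0688), without RA P4 replicate 2 (0.0968), without RA P4 replicate 3 (0.0675), without RA P14 replicate 2 (0.196), at a pseudocount of 5 CPM (0.051), with no filter on low genes (0.0534), under upper-quartile scaling (0.112), under median-of-ratios scaling (0.109), in edgeR (0.245), in DESeq2 (0.126) and in a fit of the 2 groups alone (0.103).

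Itgb6, another partner of Itgav in the activation of latent TGF-beta and known from epithelia, came on after birth in both tissues, earlier in SAN. In SAN, Itgb6 read 1.08, 0 and 0 CPM at E14.5, 38.5, 46.8 and 20.9 CPM at P4, and 38.1, 66 and 44.7 CPM at P14. In RA, Itgb6 read 1.24, 0 and 0 CPM at E14.5, 7.83, 4.19 and 0.861 CPM at P4, and 42.1, 60.2 and 39.6 CPM at P14. The groups separated at P4 and overlapped at P14. SAN was higher at P4 by 2.97 ± 0.55 (SE, adjusted p = 0.00113), lost in DESeq2 (adjusted p = 0.116). In SAN the rise was 4.76 ± 0.55 (SE, adjusted p = 9.27e-06) to P4 and 5.27 ± 0.55 (SE, adjusted p = 4.93e-07) to P14. In RA the rise was 5.18 ± 0.55 (SE, adjusted p = 6.89e-07) from E14.5 and 3.43 ± 0.55 (SE, adjusted p = 0.000667) from P4. Over the stages the difference of 0.997 ± 0.317 (SE, adjusted p = 0.0433) was lost when any of 11 libraries was dropped (adjusted p as high as 0.0952, without SAN E14.5 replicate 1), at a pseudocount of 0.25 CPM (0.146), with no filter on low genes (0.0607), under upper-quartile scaling (0.0508), in edgeR (0.335), in DESeq2 (0.495) and with library weights (0.0838).

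Itgb4, the partner of Itga6 in hemidesmosomes and present on Schwann cells and endothelium, rose in SAN. Its SAN levels were 0.217, 0.678 and 1 CPM at E14.5, 0.642, 9.62 and 19.4 CPM at P4, and 48.4, 17.6 and 30.6 CPM at P14. All P14 libraries were above all E14.5 libraries. The rise from E14.5 to P14 was 4.26 ± 0.77 (SE, adjusted p = 0.000298). In RA it went from 0.564, 2.95 and 0.891 CPM to 10.2, 1.34 and 4.43 CPM and was not called, except with library weights (adjusted p = 0.00117), and the test of the difference between tissues gave 3.06 ± 1.09 (SE, adjusted p = 0.153). Schwann cell markers rose in SAN from 9.54 to 42.2 to 131 to 151 CPM (5 of 7 called), and their part in the rise of Itgb4 was not tested.

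Itgb5, a vitronectin receptor chain, fell in SAN from 78.1, 116 and 87.7 CPM at E14.5 to 69.1, 45.6 and 59.2 CPM at P14. The fall was -0.69 ± 0.25 (SE, adjusted p = 0.046) without overlap, lost without SAN E14.5 replicate 2 (adjusted p = 0.204), without SAN E14.5 replicate 3 (0.0762), without SAN P14 replicate 2 (0.176), without SAN P14 replicate 3 (0.0792), under upper-quartile scaling (0.108), under median-of-ratios scaling (0.201), in edgeR (0.191) and in DESeq2 (0.219). At E12.5 Itgb5 was at 75.2, 37.8, 37.5 and 57.6 CPM in CreNeg and at 23.2 and 17.0 CPM in CrePos replicates 1 and 3. That difference was not called in the main fit. It was called lower in CrePos with a filter of 5 CPM (adjusted p = 0.0294), in DESeq2 (0.0413), without CreNeg replicate 2 (0.0435) and without CreNeg replicate 3 (0.027). A replicate block, fitted without CreNeg replicates 2 and 4, also called it lower (0.0319).

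Itgb3 and Itga2b form the platelet fibrinogen receptor, and both were highest in RA E14.5 replicate 3. In RA, Itgb3 had 11.2, 7.55 and 179 CPM at E14.5 and 5.4, 1.07 and 4.28 CPM at P14. The fall of -2.69 ± 0.90 (SE, adjusted p = 0.0344) was lost without RA E14.5 replicate 3 (adjusted p = 0.265), without RA P14 replicate 2 (0.144), without RA P14 replicate 3 (0.0547), at a pseudocount of 5 CPM (0.0572), with no filter on low genes (0.0566), under upper-quartile scaling (0.0677) and under median-of-ratios scaling (0.0757). Itga2b, which marks megakaryocytes and platelets, stood at 2.71, 3.5 and 47.1 CPM in the same 3 E14.5 libraries and at no more than 8.82 CPM in the other 15 of the 18. The platelet genes Pf4 and Ppbp were at 94.0 and 227 CPM in replicate 3. Without that library the difference of Itgb3 was -1.31. The next highest Itgb3 level of the 18 was 67.9 CPM in SAN P4 replicate 2, where the platelet markers summed to 8.42 CPM. The part of platelets in the fall was not tested.

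Dag1, the dystroglycan gene, ranged from 409 to 650 CPM in SAN and from 331 to 550 CPM in RA and was called in none of the comparisons in limma with the main scaling. Its rise in SAN from E14.5 to P14 was called under median-of-ratios scaling (adjusted p = 0.0278), in edgeR (0.0493) and in DESeq2 (0.0218), and its rise in RA from P4 to P14 was called under median-of-ratios scaling (adjusted p = 0.0377) and in DESeq2 (0.0169). Members called in no comparison with the main settings also included the leukocyte chains Itgb2 and Itgb7, which did not exceed 9.98 CPM. Itgb2 was called lower in SAN over the stages under upper-quartile scaling (adjusted p = 0.0494), with library weights (0.0343), without RA E14.5 replicate 2 (0.0418), without SAN E14.5 replicate 3 (0.0468), without RA P14 replicate 1 (0.0368) and without SAN P14 replicate 2 (0.0233), and at E14.5 with library weights (adjusted p = 0.00521). Itgb7 was called in RA from E14.5 to P4 with library weights (adjusted p = 0.00612) and without RA E14.5 replicate 3 (0.0165), in RA from E14.5 to P14 without RA E14.5 replicate 3 (adjusted p = 0.0496) and in SAN from P4 to P14 in DESeq2 (adjusted p = 0.0258). Itgax stayed under the filter.

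A test of whether the tissues matured differently from E14.5 to P14, the change in SAN minus that in RA, called 6 members, all with the more positive change in SAN, where 2.27% of all genes were called (1.64% in that direction and 0.632% in the other). They were Hmcn2, Lamc3, Lama5, Itga8, Nid1 and Itga6. Hmcn2 gave 7.26 ± 0.67 (SE, adjusted p = 5.39e-06) and Lamc3, a low gene, 3.41 ± 0.67 (SE, adjusted p = 0.00843). The estimates for Lama5, Itga8, Nid1 and Itga6 are given with each gene above. These 6 calls were kept under every alternative that tested them, though the estimates ran from 4.53 to 13.99 for Hmcn2 and from 1.19 to 13.4 for Lamc3 with the pseudocount and the tool. Lama5 and Itga6 reached this mainly through their fall in RA, and Hmcn2 and Nid1 through their rise in SAN. In the tests of each tissue, 12 members were called in both, of which 4 rose in both, 5 fell in both and 3 (Hmcn2, Itga8 and Lamc3) rose in SAN and fell in RA. The falls of Hmcn2 and Lamc3 in RA, both from a few CPM or less, were each lost in 6 alternatives. That of Hmcn2 was lost without RA E14.5 replicate 2 (adjusted p = 0.0865), without RA E14.5 replicate 3 (0.0848), without RA P14 replicate 1 (0.0703), without RA P14 replicate 2 (0.0661), without RA P14 replicate 3 (0.0672) and at a pseudocount of 5 CPM (0.218). That of Lamc3 was lost without RA E14.5 replicate 1 (adjusted p = 0.222), without RA P14 replicate 1 (0.0618), without RA P14 replicate 2 (0.0826), without RA P14 replicate 3 (0.0786), at a pseudocount of 5 CPM (0.0674) and in edgeR (0.0811). A further 8 were called in SAN alone and 5 in RA alone, which does not by itself show a difference between tissues. How many of all genes were called in both tissues, or in only 1, was not counted. These counts therefore do not show whether the members stand out from other genes.

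**Figure D4:**
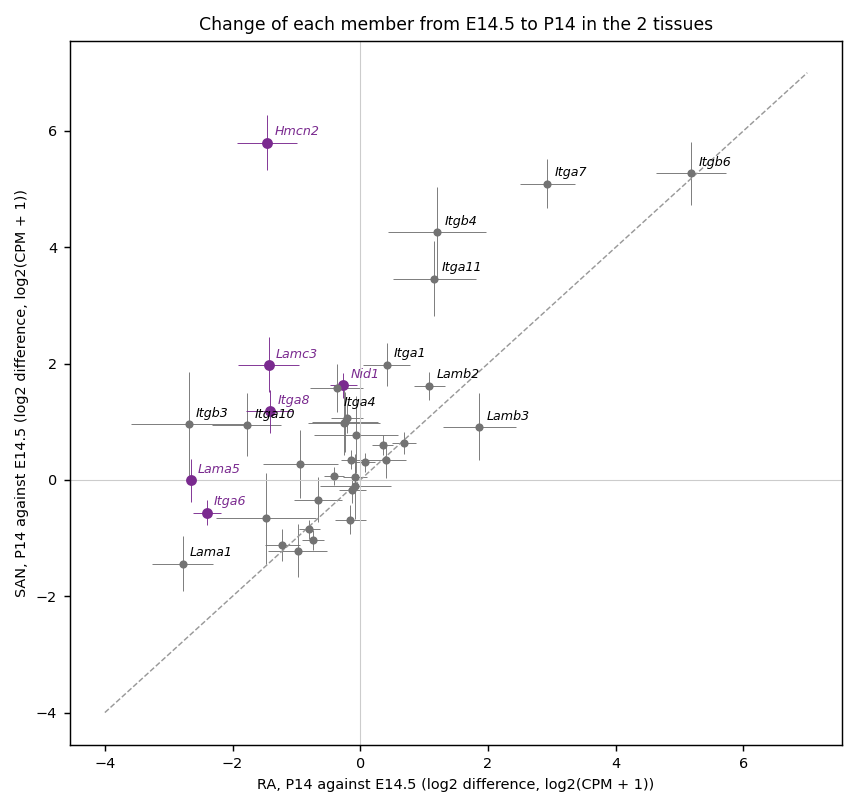
Change of 38 of the 39 tested members from E14.5 to P14 in RA (horizontal) and SAN (vertical), as log2 differences on log2(CPM + 1) with SE bars, and the dashed line where both changes are equal. Purple points (Hmcn2, Lamc3, Itga8, Nid1, Lama5, Itga6) are the 6 members whose change differed between tissues at an adjusted p under 0.05, and all lie above the line.

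The partners of these genes were counted from lists chosen by function. Of 8 basement membrane collagen genes, 5 were higher in SAN over the stages, with a median of 0.93 against -0.01 for all genes, where 6.11% of all genes were called higher and 5.36% lower. Col4a6, an alpha chain of type IV collagen, was higher by 1.89 ± 0.18 (SE, adjusted p = 8.10e-08), Col15a1 by 1.26 ± 0.21 (SE, adjusted p = 0.000164) and Col4a5 by 0.61 ± 0.10 (SE, adjusted p = 0.000264). Col4a6 stood at 77.2, 72.9 and 86.6 CPM in SAN and 8.76, 3.3 and 11.5 CPM in RA at P14. It fell in RA from E14.5 to P14 by -3.14 ± 0.31 (SE, adjusted p = 2.63e-07), and the tissues differed in its change by 2.35 ± 0.44 (SE, adjusted p = 0.00565). Col15a1 rose in both tissues, by 4.35 ± 0.36 (SE, adjusted p = 1.79e-08) in SAN and 6.24 ± 0.36 (SE, adjusted p = 8.23e-11) in RA.

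Of 18 genes of the dystrophin complex and of dystroglycan glycosylation, 5 were higher and 1 was lower in SAN over the stages. Of all genes, 6.11% were called higher and 5.36% lower there. The dystrobrevin gene Dtna led the list at 1.31 ± 0.12 (SE, adjusted p = 6.72e-08). From E14.5 to P14, 8 rose and 1 fell in SAN, where 9.74% of all genes rose and 14.5% fell, and 6 rose and 1 fell in RA, where 5.99% rose and 16.7% fell. The dystrophin gene Dmd rose by 1.02 ± 0.22 (SE, adjusted p = 0.00155) in SAN and 0.85 ± 0.22 (SE, adjusted p = 0.00758) in RA. Of 17 genes of the intracellular adhesion complex, 3 were higher in SAN, namely Zyx (1.03 ± 0.12 (SE, adjusted p = 2.97e-06)), Tns1 (0.67 ± 0.11 (SE, adjusted p = 0.000175)) and Tln2 (0.39 ± 0.12 (SE, adjusted p = 0.0348)). Lims2, an adaptor of integrin-linked kinase, rose from E14.5 to P14 by 3.83 ± 0.41 (SE, adjusted p = 5.98e-07) in SAN and 3.06 ± 0.41 (SE, adjusted p = 1.12e-05) in RA. Of 9 interstitial ligands, 1 (Npnt) was higher and 2 (Fn1 and Icam1) were lower in SAN. Of 11 other matrix receptors, 2 were higher and 2 lower, among them the laminin receptor gene Bcam at 0.54 ± 0.12 (SE, adjusted p = 0.00265).

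In the E12.5 set, 33 members were tested and 5 differed between the libraries labelled CrePos and CreNeg, 4 lower and 1 higher, where 2.00% of all 14595 genes were called (0.678% higher and 1.32% lower). Itga4, Itga5 and Itga8, which bind fibronectin, nephronectin or cell-surface ligands, and the laminin chain Lama3 were lower in CrePos, and Itga6 was higher. CrePos replicate 2, whose title marks it as an outlier, was left out. It held Myl2 at 1032 CPM and Isl1 at 2.85 CPM. Isl1 itself stood at 67.4, 88.5, 47.8 and 83.2 CPM in the CreNeg libraries and at 71.7 and 53.9 CPM in CrePos replicates 1 and 3, which overlap. Which part of Isl1 is floxed is not given in the sources used here, so this whole-gene level may not measure the deletion and the libraries are named by their labels. The member median was -0.30 against -0.42 over all genes, and the all-gene median moved to -0.03 and -0.01 under upper-quartile and median-of-ratios scaling, where the members' median turned to 0.14 and 0.16, with 2 higher and 3 lower.

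The CreNeg libraries held Itga4 at 68.2, 110.4, 78.1 and 56.7 CPM, against 25.4 and 14.9 CPM in CrePos. Itga8 stood at 40.6, 27.9, 36.7 and 24.4 CPM in CreNeg and at 12.1 and 6.16 CPM in CrePos. Itga5 was at 54.3, 54.2, 63.2 and 43 CPM in CreNeg and at 23.5 and 16.2 CPM in CrePos. For these 3 genes every CrePos library in the fit was below every CreNeg library. Lama3 was at 16.5, 5.04, 3.85 and 11.7 CPM in CreNeg and at 0.746 and 0 CPM in CrePos. Itga6 was at 125, 118, 137 and 108 CPM in CreNeg and at 231 and 233 CPM in CrePos, the reverse order without overlap. The differences were -1.91 ± 0.31 (SE, adjusted p = 0.00324) for Itga4, -1.76 ± 0.35 (SE, adjusted p = 0.0145) for Itga8, -1.40 ± 0.28 (SE, adjusted p = 0.0149) for Itga5, -2.77 ± 0.56 (SE, adjusted p = 0.0176) for Lama3 and 0.93 ± 0.21 (SE, adjusted p = 0.0356) for Itga6.

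With 2 CrePos libraries in the fit, none of the 5 calls held when replicate 3 was left out. The differences were then -1.55 for Itga4, -1.33 for Itga8, -1.15 for Itga5, -2.36 for Lama3 and 0.92 for Itga6, all of the same sign and with 1 CrePos library remaining. Itga4 was lost without CrePos replicate 3 (adjusted p = 0.171), with no filter on low genes (0.111), in edgeR (0.0718) and with CrePos replicate 2 kept (0.115). Itga8 was lost without CrePos replicate 3 (adjusted p = 0.433), with no filter on low genes (0.142), in edgeR (0.0667) and with CrePos replicate 2 kept (0.176). Itga5 was lost without CrePos replicate 3 (adjusted p = 0.378), with no filter on low genes (0.112), under upper-quartile scaling (0.0551), under median-of-ratios scaling (0.0611), in edgeR (0.107) and with CrePos replicate 2 kept (0.291). Lama3 was lost without CrePos replicate 1 (adjusted p = 0.053), without CrePos replicate 3 (0.502), at a pseudocount of 5 CPM (0.0775), with no filter on low genes (0.215), in edgeR (0.268) and in DESeq2 (0.149). Itga6 was lost without CreNeg replicate 2 (adjusted p = 0.0742), without CreNeg replicate 4 (0.1), without CrePos replicate 1 (0.0723), without CrePos replicate 3 (0.379), with no filter on low genes (0.112), with a replicate block (0.0533) and with CrePos replicate 2 kept (0.0716). Where a single CrePos library remained, it was taken to vary like the CreNeg libraries. The replicate block was fitted without CreNeg replicates 2 and 4.

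CrePos replicate 2 stood at 74.6 CPM for Itga4, 37.9 CPM for Itga8 and 82.5 CPM for Itga5, each within or above the CreNeg range, and at 162 CPM for Itga6. Per kilobase, Itga6 was 35.4% ± 2.58 (SD, n = 4) of all integrin alpha message in CreNeg and 65.3% ± 4.62 (n = 2) in CrePos. Fibroblast markers were lower in CrePos (4 of 8 called), with sums of 1840.4 to 4145 CPM in CreNeg and 798 to 1264 CPM in CrePos, none at 0, and their part in the lower integrin levels was not tested. Of 62 genes tested in the lists of collagens, ligands, adhesion complex, dystrophin complex and other receptors, 0 were called in limma and 0 in edgeR, with 15 and 8 at an unadjusted p under 0.05. DESeq2 called 3, Tns1, Sspn and Tln2, all higher in CrePos.

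**Figure D5:**
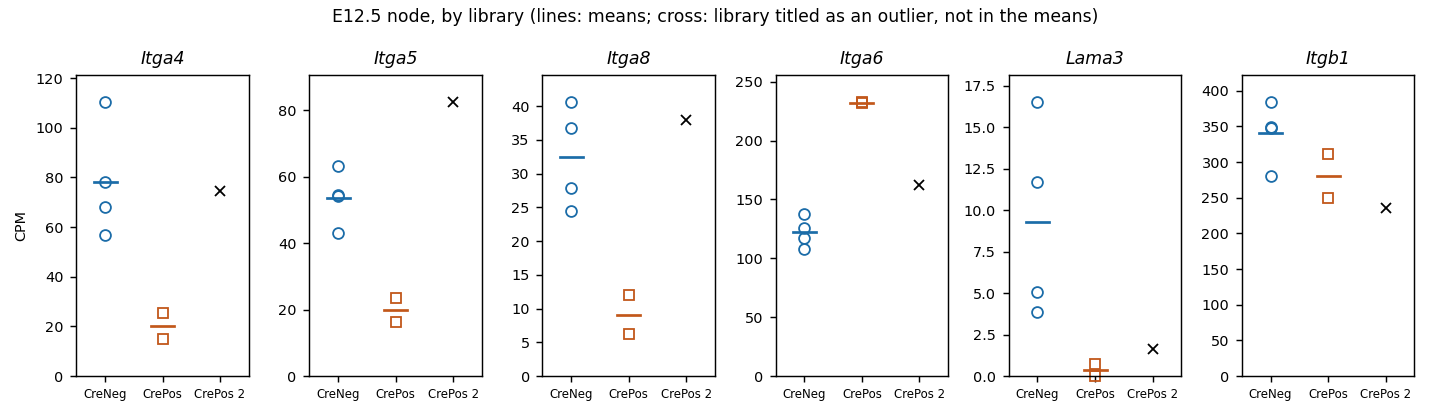
Level in CPM by library of Itga4, Itga5, Itga8, Itga6, Lama3 and Itgb1 in SAN of E12.5 embryos: 4 CreNeg libraries (circles), CrePos replicates 1 and 3 (squares) and CrePos replicate 2 (cross), with lines at the means of the circles and squares. Each panel has its own linear axis from 0. The squares lie below all circles for Itga4, Itga5, Itga8 and Lama3 and above all for Itga6, and the cross lies with or above the circles for Itga4, Itga5 and Itga8.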

How the data were processed

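Per the labels' protocols, tissue was laser-captured from 8 micron sections, RNA was isolated with PicoPure, amplified with the Ovation RNA-Seq System V2, which keeps no strand information, and sequenced. The deposited values are a scaled signal per gene that the authors made, per the submitters' processing notes, with TopHat2 2.0.6 and edgeR on build mm8. The counter and annotation are not given in the sources used here, so overlapping genes and close paralogs may share reads. At least 99.9952% of a library's values were whole multiples of 1 step within 0.1 of a read, so reads were recovered. The deposited signal was divided by 24.3 to reach the CPM scale. No column was left unused.

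The members and all lists were chosen with earlier results of these data known. limma 3.58.1 (R 4.3.3) tested log2(CPM + 1) with a trend, 6 group means for the 18 libraries and a separate fit of 4 CreNeg against 2 CrePos libraries. Genes with at least 1 CPM in 3 libraries (2 in the Isl1 set) were tested, 17568 and 14595. That left out Itgax in the 18 and Hmcn2, Itga7, Itgax, Itgb4, Itgb6, Itgb7 and Lamb3 in the Isl1 set. Values in every library are given for members called without overlap at a group mean of at least 5 CPM. A member counted in the totals and a few listed genes are not reported here. Of other lists, up to 3 called genes with the smallest p are named. Exon lengths for per-kilobase shares came from GENCODE M21 and promoters from RefSeq, since mm8 was not used here. edgeR 4.0.16 and DESeq2 1.42.0 ran on the recovered reads as alternatives, and edgeR called 1809 genes over the 3 stages against 2016 in limma. The fits were also run on simulated data, with changes planted only in genes with many reads and with the same spread set for all genes. Those runs therefore do not check the calls of low genes or the real spread between libraries. Floors of 3 reads cover counting error only, and amplified reads are not independent molecules. Replicates differed by more than sampling noise (chi-square per degree of freedom at least 8.42).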

Additional observations from a re-analysis of the deposited data

Results flagged for a closer look

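In 6 members the change from E14.5 to P14 differed between SAN and RA by the test of that difference. The values, SAN minus RA on the log2(CPM + 1) scale, were 7.26 for Hmcn2, 3.41 for Lamc3, 2.65 for Lama5, 2.59 for Itga8, 1.89 for Nid1 and 1.84 for Itga6.

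Among the 4 CreNeg libraries, replicate 1 lay far above the other 3 for Hmcn1 (264 CPM) and Itgb8 (84.1 CPM). Chance marks about 1 in 20 groups this way, and 27 members were looked at.

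CrePos replicate 2, which was left out of the main fit, lay above the highest CreNeg library for Itga1 (53.9 CPM), Itga5 (82.5 CPM), Itga6 (162 CPM) and Lama4 (154 CPM). The library held Myl2 at 1032 CPM, and the part of ventricular tissue in these levels was not tested.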

How the results depend on the processing

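Of 115 member calls over 12 comparisons, 65 were kept under every alternative run and 50 were lost under at least 1. No call changed sign. A further 91 combinations of member and comparison, not called with the main settings, were called under at least 1 alternative. The number of members called moved as follows. In edgeR it was 7 against 11 for SAN and RA at P14, 4 against 7 for SAN from P4 to P14, 11 against 17 for RA from E14.5 to P14, 2 against 5 for RA from P4 to P14 and 1 against 5 in the Isl1 set. In DESeq2 it was 10 against 6 for SAN and RA at E14.5, 11 against 4 for SAN from E14.5 to P4 and 8 against 5 in the Isl1 set. With library weights it was 19 against 6 at E14.5, 3 against 7 for SAN from P4 to P14, 9 against 5 for RA from P4 to P14 and 12 against 6 for the difference between tissues. A fit of the 2 groups alone gave 2 against 7 for SAN from P4 to P14. For RA from P4 to P14, a pseudocount of 5 CPM gave 3 and no filter gave 3, against 5. In the Isl1 set, no filter gave 0 of 5 in limma and keeping CrePos replicate 2 gave 1. The cause of these shifts was not tested.

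Leaving out 1 library in turn gave 13 to 17 calls over the stages (15 with all), 5 to 8 at E14.5 (6), 8 to 11 at P4 (9) and 7 to 10 at P14 (11). For SAN it gave 16 to 19 from E14.5 to P14 (20), 3 to 6 from E14.5 to P4 (4) and 3 to 13 from P4 to P14 (7). For RA it gave 11 to 15 (17), 6 to 12 (10) and 2 to 4 (5) over the same steps. The difference between tissues gave 6 to 7 (6) and the Isl1 set 0 to 6 (5).

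Same-numbered libraries were not treated as pairs: 3 of 9 SAN and RA pairs matched best with their own number, with correlations of -0.0915 to 0.119. A replicate block left the member counts of the 11 tissue and stage comparisons as they were. In the Isl1 set it was fitted on CreNeg replicates 1 and 3 and CrePos replicates 1 and 3 only, without CreNeg replicates 2 and 4. That run gave 6 calls against 5, and Itga6 was lost (adjusted p = 0.0533). Its shifts cannot be assigned to the block alone, since the libraries also differed. A fit of the compared groups alone is the same fit for the mean of the 3 stages and was not run apart.

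Over all genes, counts that moved by more than 1.5 times were as follows. At E14.5, 936 became 2914 with library weights and 1546 with the 2 groups alone. At P4, 1047 became 550 with the 2 groups alone, and at P14, 799 became 525 in edgeR. For SAN from P4 to P14, 982 became 311 with the 2 groups alone. For RA, library weights turned 3988 into 7640 from E14.5 to P14 and 1193 into 3117 from E14.5 to P4. From P4 to P14 in RA, 1188 became 724 under upper-quartile scaling, 754 under median-of-ratios scaling, 541 in edgeR, 3191 with library weights and 778 with the 2 groups alone. The difference between tissues went from 399 to 227 in edgeR, 675 in DESeq2 and 1397 with library weights. The Isl1 set went from 292 to 39 with no filter, 126 in edgeR, 661 in DESeq2 and 625 with a replicate block fitted without CreNeg replicates 2 and 4. At the depth of the 18 libraries a count of 0 allows up to 0.646 CPM, so the absence of Lama1 or Hmcn2 is bounded there and not shown.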
